A study of Mus musculus with 8 samples.

Results

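Aminoacyl-tRNA synthetases are the enzymes that join each amino acid to its transfer RNA, the step that turns free amino acids into substrates of the ribosome. Their genes were examined in the livers of mice that had eaten a diet low in amino acids. The members were named by symbol and not by any measured value, as 20 synthetases of the cytosol and 16 synthetases of the mitochondrion, the latter with symbols ending in 2. All 36 were present among the 11784 genes of the table. The livers came from 8 male C57BL/6J mice without a transgene or deleted gene, 4 on the Control diet and 4 on the Low AA diet. Both diets were built from free amino acids, and Low AA supplied fewer of its calories as amino acids and more as carbohydrate, so the amino acids and the carbohydrate differed together. Feeding started when the mice were 9 weeks old, lasted 4 months and ended with a fast of about 16 hours, so every liver was from a fasted animal. The strain is inbred, the mice were group housed, and the labels do not say which mice shared a cage.

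The cytosolic synthetases serve translation by cytosolic ribosomes, and 8 of them sit together in the multisynthetase complex. The mitochondrial synthetases are encoded in the nucleus, imported, and charge the tRNAs used to translate the few proteins of the mitochondrial genome. The Gars and Kars genes supply both compartments, and no mitochondrial glutaminyl-tRNA synthetase exists in mammals, where a glutamate-charged tRNA is converted by an amidotransferase. When an amino acid is short, uncharged tRNA activates the kinase GCN2, which phosphorylates eIF2alpha and favours translation of the transcription factor ATF4. ATF4 binds C/EBP-ATF response elements, and several cytosolic synthetase genes are known ATF4 targets.

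The promoters of the members were searched for that element because it is the sequence through which amino acid shortage is known to reach these genes. A promoter was the stretch from 250 bases before to 50 bases after a RefSeq transcription start (GRCm38.p6), and 27 of the 36 members matched the promoter table, 13 cytosolic and 14 mitochondrial. Cars, Hars, Lars, Nars, Rars, Vars, Wars, Hars2 and Pars2 did not match. The letters TGATGNAA, searched on both strands, were present in 5 of the 13 cytosolic members (38.5%) and in 0 of the 14 mitochondrial members. Of all 27025 genes of the RefSeq promoter table, 1219 held them (4.51%), as did 233 of the 8500 genes with expression values (2.74%). A match in each of the 5 members is printed below in a 30-base window with the motif in capitals, 5′ to 3′ on the strand that carries it, and the Asns promoter, a textbook site of ATF4 binding, is given for comparison.
Aars, chr8:111033840-111033869, minus strand: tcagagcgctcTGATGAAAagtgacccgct
Gars, chr6:55037960-55037989, minus strand: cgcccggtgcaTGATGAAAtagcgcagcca
Iars, chr13:49682126-49682155, minus strand: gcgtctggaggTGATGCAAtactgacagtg
Tars, chr15:11399655-11399684, plus strand: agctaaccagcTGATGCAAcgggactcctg
Yars, chr4:129189895-129189924, plus strand: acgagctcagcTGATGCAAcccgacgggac
Asns, chr6:7693214-7693243, minus strand: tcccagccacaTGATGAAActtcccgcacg

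The upstream end of the motif lay 30 bases before the start in Gars, 15 before it in Tars and 23 before it in Asns. It lay at base 8 of the transcribed stretch in Iars and at base 4 in Yars. The cyclic AMP response element TGACGTCA, also searched on both strands, was found in 0 of the 27 members. It was found in 549 of all 27025 genes (2.03%) and in 299 of the 8500 genes with expression values (3.52%). A match is a run of letters only, and binding was not measured here.

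The expression values were scaled and rounded read counts, whose sums lay between 28361406 and 29485422 in the Control mice and between 27876664 and 30799385 in the Low AA mice. The hepatocyte markers Alb, Ttr, Apoa1, Cps1, Tat, G6pc and Serpina1a summed to 2077620 to 2393208 in Control and 2314218 to 2533466 in Low AA livers. One mouse in each diet stood apart. Control mouse F2212 had a value of 36587 for the pancreatic elastase Cela1, the 1 of 12 pancreas acinar markers in the table, where the next highest of the 8 mice had 288, and its blood markers summed to 13960 against at most 8274 in any other mouse. Low AA mouse H1126 had a value of 178584 for Rn45s, the precursor of ribosomal RNA, against 19010 to 78018 elsewhere. In bulk liver, fewer cells of a type and less RNA per cell cannot be told apart. The summed markers of macrophages (6701 to 9574 on Low AA, 6357 to 9492 on Control), endothelial cells (5946 to 6600 and 4858 to 6945), stellate cells (1290 to 1739 and 1531 to 2002), cholangiocytes (826 to 1316 and 1124 to 2265) and lymphocytes (291 to 422 and 246 to 449) overlapped between diets.

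The median over members of the mean value, not divided by length, was 683 against 445 over all genes, with the cytosolic group above and the mitochondrial group below all genes. Levels were compared between genes as the mean scaled count per kilobase of the principal GENCODE transcript. In the cytosolic group Dars, the aspartyl enzyme, was highest at 1090 per kilobase, followed by the asparaginyl enzyme Nars at 932 and the alanyl enzyme Aars at 882, and the lowest were the valyl enzyme Vars at 167 and the cysteinyl enzyme Cars at 103. For Dars the scaled counts were 2201, 2427, 2332 and 2338 in Low AA mice and 2597, 2085, 2349 and 2634 in Control mice. Nars had 2425, 2559, 2432 and 2439 on Low AA and 2837, 2601, 2767 and 2398 on Control. For Aars the values were 4870, 4902, 4556 and 4675 on Low AA and 5372, 5606, 6088 and 4523 on Control. In all 3 of these genes the mice of the 2 diets overlapped, and in the whole cytosolic order each gene overlapped with the next one below it in its per-mouse values (19 of 19 neighbouring pairs).

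Mitochondrial synthetases were lower, with a median mean value of 307 against 1285 in the cytosolic group and 445 over all genes. Apart from the leucyl enzyme Lars2, at 1816 per kilobase, none exceeded the isoleucyl enzyme Iars2 at 361 and the phenylalanyl enzyme Fars2 at 285. Lars2 stood at 2423 on Low AA, raised by mouse H1126 with a scaled count of 23215, and at 1209 on Control. The part of ribosomal RNA in its level was not tested. Iars2 had scaled counts of 1980, 1983, 1881 and 2022 on Low AA and 1944, 1972, 2202 and 1838 on Control, and Fars2 had 592, 574, 567 and 657 on Low AA and 601, 666, 612 and 579 on Control. Both genes overlapped between diets. The lowest were the prolyl enzyme Pars2 at 37.1 per kilobase, the tryptophanyl enzyme Wars2 at 30.7 and the methionyl enzyme Mars2 at 6.08. Mars2 has a long principal transcript of 11294 bases, which lowers its value per kilobase, and its scaled counts ran from 52 to 93. In the mitochondrial order 11 of 15 neighbouring pairs overlapped, and those that did not were Lars2 above Iars2, Iars2 above Fars2, Aars2 above Pars2 and Wars2 above Mars2.

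**Figure D1:**
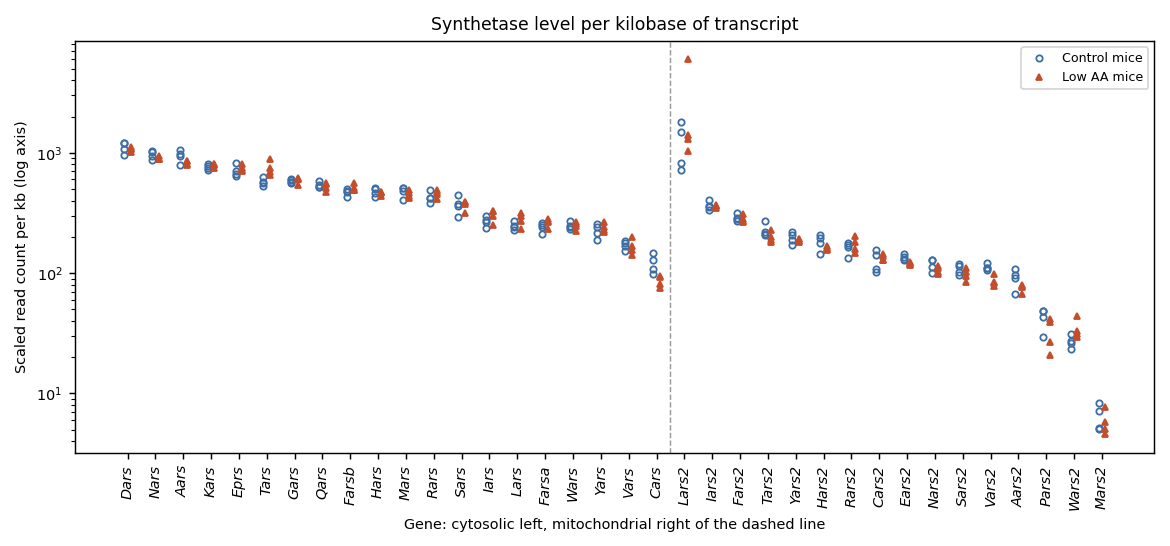
Level of each synthetase in each mouse, as scaled read count per kilobase of principal transcript on a log axis, with cytosolic genes left and mitochondrial genes right of the dashed line. Open circles are Control mice and filled triangles Low AA mice. Cytosolic means run from 103 (Cars) to 1090 (Dars), and Lars2 alone among mitochondrial genes has a mean above that of Iars2 (361). The Lars2 mean includes mouse H1126, which lies far above the others.

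Whether the diet changed the synthetases was tested gene by gene with limma on log2(value + 1), adjusted by the Benjamini-Hochberg method over all 11784 genes. No synthetase passed an adjusted p of 0.05, against 47 of all genes (0.399%). At an unadjusted p under 0.05 there were 3 members (8.33%), namely Cars, Tars and Vars2, against 11.8% of all genes, so the share among the synthetases did not exceed the background. The values of the 2 diets did not overlap in 4 members (11.1%), with Cars, Vars2 and Ears2 lower and Tars higher on Low AA, against 6.81% of all genes. Without Control mouse F2110 there were 8 members without overlap and 6 at an unadjusted p under 0.05, still with 0 past the adjusted test. In that set of 7 mice 10.2% of all genes did not overlap, against 22.2% of the synthetases, and 11.3% of all genes had an unadjusted p under 0.05, against 16.7%. The log2 fold changes of all members, Low AA against Control, ran from −0.47 (Cars) to 0.71 (Lars2), with a median of −0.04 against 0.00 over all genes.

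For most members the 95% interval left out a change of more than 1.5-fold. The 95% interval of the log2 fold change lay wholly within a 1.5-fold change in either direction for 29 of 36 members (80.6%), against 64.6% of all genes. This came mainly from the cytosolic group, with 18 of 20 members. The mitochondrial group had 11 of 16, a share close to that of all genes. The limit is wide next to the estimates, of which only that of Lars2 exceeded 1.5-fold. The residual SD between mice of one diet had a median of 0.14 over the members against 0.22 over all genes, on the log2 scale. Kars, the lysyl enzyme, had the smallest residual SD at 0.06, and its log2 fold change was 0.05 with an interval from −0.13 to 0.24.

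**Figure D2:**
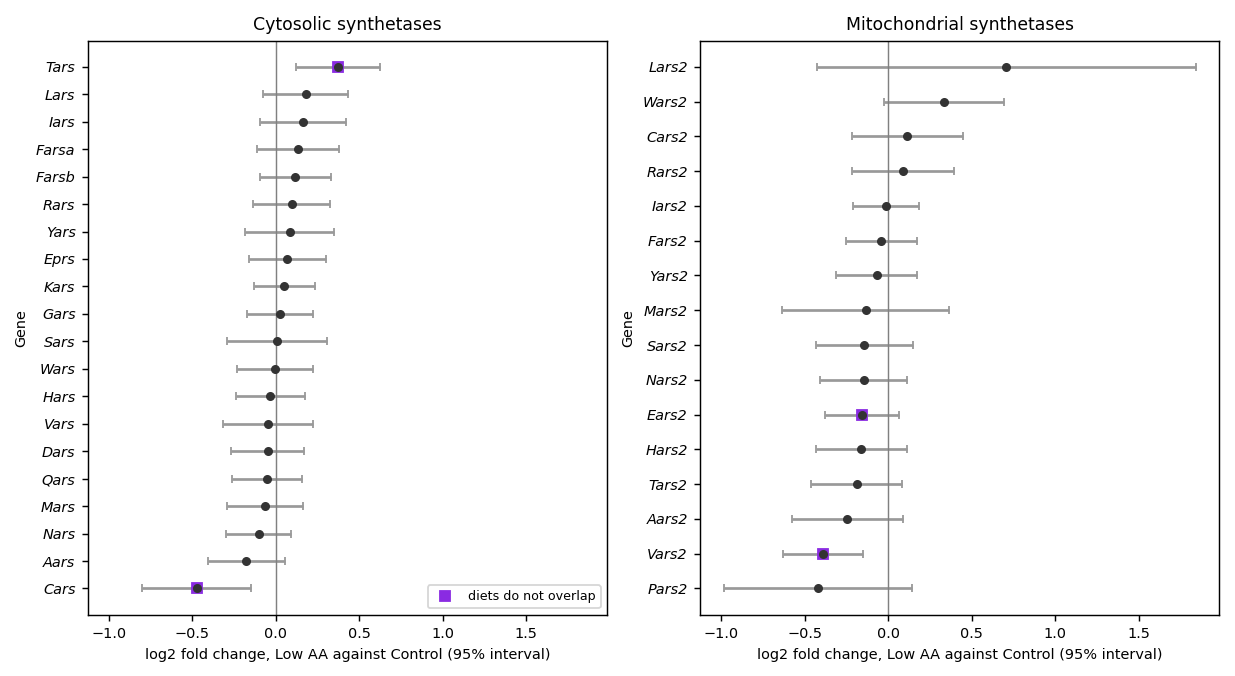
Log2 fold change of each synthetase, Low AA against Control, with its 95% interval from limma (4 mice per diet), cytosolic genes left and mitochondrial genes right. Purple squares mark the 4 genes whose diets do not overlap. Intervals of Cars, Tars and Vars2 leave out 0 without adjustment, and Lars2 has the widest interval, from −0.43 to 1.84.

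In the cytosolic group 11 members had a higher and 9 a lower mean on Low AA, with a median log2 fold change of 0.01, and 18 of 20 intervals lay within a 1.5-fold change. The exceptions were Cars and Tars. Cars, on chr7:143557230-143600090, joins cysteine to its tRNA. Its scaled counts were 244, 261, 307 and 296 in Low AA mice and 412, 476, 348 and 317 in Control mice. Every Low AA mouse lay below every Control mouse, though the highest Low AA and the lowest Control value were only 10 counts apart. The means were 277 ± 29.5 and 388 ± 70.6 (SD, n = 4 each), which gave a log2 fold change of −0.47 (SE 0.15) with a limma adjusted p of 0.220. The two-sided exact permutation p was 0.0286, the smallest that 4 against 4 mice can give. Any gene without overlap gives this p, so it adds nothing to the lack of overlap. In Tars, the threonyl enzyme on chr15:11382301-11399665, the scaled counts were 3549, 2610, 2999 and 2793 on Low AA and 2522, 2129, 2297 and 2247 on Control. All Low AA mice lay above all Control mice, with H1126 highest. The means were 2988 ± 407 and 2299 ± 165 (SD, n = 4 each), which gave a log2 fold change of 0.37 (SE 0.11) with a limma adjusted p of 0.209 and the same exact permutation p of 0.0286. Without the mice F2212 and H1126 the log2 fold change was −0.31 for Cars (limma adjusted p 0.515) and 0.25 for Tars (limma adjusted p 0.479).

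The other cytosolic synthetases had log2 fold changes between −0.18 (Aars) and 0.18 (Lars). Aars, which had the lowest of these, was at 4751 ± 164 on Low AA and 5397 ± 655 on Control (SD, n = 4 each), with a limma adjusted p of 0.574 and values that overlapped because of Control mouse F2110 at 4523. The serine enzyme Sars and the tryptophan enzyme Wars had log2 fold changes of 0.01 and −0.01 (SE 0.13 and 0.10). Next to Lars came the isoleucyl enzyme Iars at 0.16 (SE 0.12) and the alpha subunit of the phenylalanyl enzyme, Farsa, at 0.13 (SE 0.11), while its beta subunit Farsb was at 0.12 (SE 0.10). The 2 subunits, which work as one enzyme, thus had like estimates with intervals that included 0.

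The 8 members of the multisynthetase complex (Eprs, Iars, Lars, Mars, Qars, Rars, Kars and Dars) had 5 higher and 3 lower means, log2 fold changes from −0.07 to 0.18 with a median of 0.06, and 8 of 8 intervals within a 1.5-fold change. The 12 cytosolic members outside the complex had 6 higher and 6 lower means. The scaffold genes of the complex had log2 fold changes of −0.01 (Aimp1), −0.04 (Aimp2) and 0.18 (Eef1e1), with limma adjusted p-values of 0.989, 0.952 and 0.591. The 10 cytosolic members that charge tRNA with amino acids the mouse cannot make had 6 higher and 4 lower means and a median of 0.08, against 5 and 5 and a median of −0.02 in the other 10. Among the 5 members with a C/EBP-ATF element in the promoter windows printed above, the log2 fold changes were −0.18 for Aars, 0.02 for Gars, 0.16 for Iars, 0.37 for Tars and 0.08 for Yars. None of the 5 passed the adjusted test, which 0.399% of all genes passed.

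**Figure D3:**
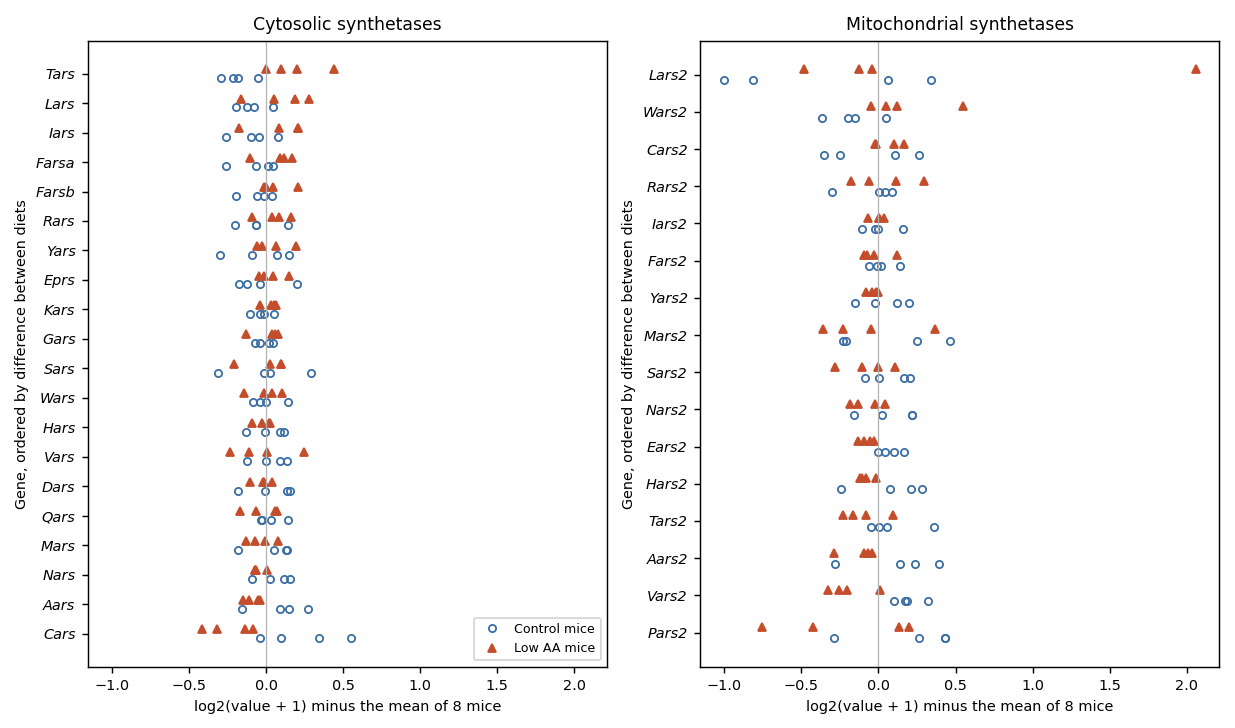
Each mouse's log2(value + 1) minus the gene's mean over the 8 mice, with genes ordered by the difference between diets (cytosolic left, mitochondrial right). Open circles are Control mice and filled triangles Low AA mice. The 2 diets separate without overlap in Tars and Cars on the left and in Ears2 and Vars2 on the right, and Lars2 in mouse H1126 lies farthest from its mean.

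In the mitochondrial group 12 of 16 members (75.0%) had a lower mean on Low AA, against 49.5% of all genes, and the median log2 fold change was −0.14. The higher means were those of Cars2, Lars2, Rars2 and Wars2. The count had no test, since genes of one liver share its mouse. Vars2, the valyl enzyme on chr17:35655634-35667592, had the lowest p of any synthetase. Its scaled counts were 344, 435, 362 and 376 in Low AA mice and 488, 491, 541 and 465 in Control mice. No Low AA mouse reached the lowest Control mouse. The means were 379 ± 39.4 and 496 ± 32.0 (SD, n = 4 each), which gave a log2 fold change of −0.39 (SE 0.11) with a limma adjusted p of 0.174, so it did not pass. Its exact permutation p of 0.0286 follows from the lack of overlap alone and adds nothing to it. Without F2212 and H1126 its log2 fold change was −0.35 (limma adjusted p 0.384). Ears2, the glutamyl enzyme on chr7:122037213-122067263, had scaled counts of 237, 243, 255 and 250 on Low AA and 292, 279, 260 and 268 on Control. The diets were separated by 5 counts. Its means of 246 ± 7.89 and 275 ± 13.9 (SD, n = 4 each) gave a log2 fold change of −0.16 (SE 0.10) with a limma adjusted p of 0.605.

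The remaining mitochondrial members did not separate by diet. Pars2 had the lowest log2 fold change of the group at −0.42 (SE 0.25, limma adjusted p 0.578), with scaled counts of 86, 46, 58 and 90 on Low AA and 106, 106, 64 and 94 on Control, and it was −0.24 without H828. Wars2 was at 152 ± 29.6 on Low AA and 119 ± 14.5 on Control (SD, n = 4 each), with a log2 fold change of 0.33 (SE 0.16, limma adjusted p 0.467) and mouse H828 highest at 195, without which it was 0.21. The alanyl enzyme Aars2 was at −0.25, the threonyl enzyme Tars2 at −0.19, the histidyl enzyme Hars2 at −0.16, the asparaginyl enzyme Nars2 at −0.15 and the seryl enzyme Sars2 at −0.14, and these 5 overlapped between diets. The tyrosyl enzyme Yars2 (−0.07), Mars2 (−0.14), Fars2 (−0.04), Iars2 (−0.01), the arginyl enzyme Rars2 (0.09) and Cars2 (0.11) overlapped as well. By structural class, the 7 mitochondrial members of class II had 0 higher and 7 lower means with a median of −0.16, and the 9 of class I had 4 higher and 5 lower with a median of −0.01. The cytosolic members of class II had 6 higher and 4 lower means, and no difference between these groups was tested.

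The mice of one diet were not alike in the mitochondrial group. Without Lars2, left out after its values were seen, the mean deviation of the mitochondrial members from their own means was −0.004, −0.07, −0.13 and −0.006 on the log2 scale in Low AA mice H1126, H828, H817 and H1315. It was 0.15, 0.08, 0.03 and −0.04 in Control mice F129, F2212, F7111 and F2110. Control mouse F2110 thus lay below 2 of the Low AA mice. With Lars2 included, 15 of the 16 mitochondrial members lay below their own mean in H817 and 9 to 11 did in the other Low AA mice, against 3 to 6 in 3 of the Control mice and 10 in F2110. The cytosolic members of F2110 were low too, at a mean deviation of −0.10, with 18 of 20 below their own mean.

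The ratio of the cytosolic to the mitochondrial enzyme for the same amino acid was taken within each mouse, a comparison that cancels the scaling of a library and was added after the values of single genes had been seen. Of 17 ratios, in which Eprs and Fars2 each served for 2, 14 were higher and 3 lower on Low AA. This count was not tested, and it uses the same genes as the count of 12 of 16 mitochondrial members with a lower mean. Without Lars2, the cytosolic minus the mitochondrial mean deviation was −0.033, 0.085, 0.173 and 0.014 in Low AA mice. It was −0.087, −0.074, −0.025 and −0.053 in Control mice, so the diets overlapped. SEs of the ratios come from the mice of each diet alone and not from limma. The 3 ratios without overlap were those that hold a gene described above, so they are not further evidence about it. The log2 ratio of Cars to Cars2 was 0.00, −0.02, 0.34 and 0.10 in Low AA mice and 0.48, 0.84, 0.85 and 0.61 in Control mice, a difference of −0.59 (SE 0.12). Cars2, the other enzyme for cysteine, had scaled counts of 244, 264, 243 and 276 on Low AA and 296, 266, 193 and 207 on Control and overlapped between diets. The log2 ratio of Tars to Tars2 was 2.64 ± 0.31 on Low AA and 2.08 ± 0.12 on Control (SD, n = 4 each), a difference of 0.56 (SE 0.17). Vars to Vars2 stood at 0.84 ± 0.09 and 0.50 ± 0.10 (SD, n = 4 each), a difference of 0.34 (SE 0.07), with Vars itself at a log2 fold change of −0.05. The pair for cysteine was thus lower on Low AA, and those for threonine and valine were higher.

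**Figure D4:**
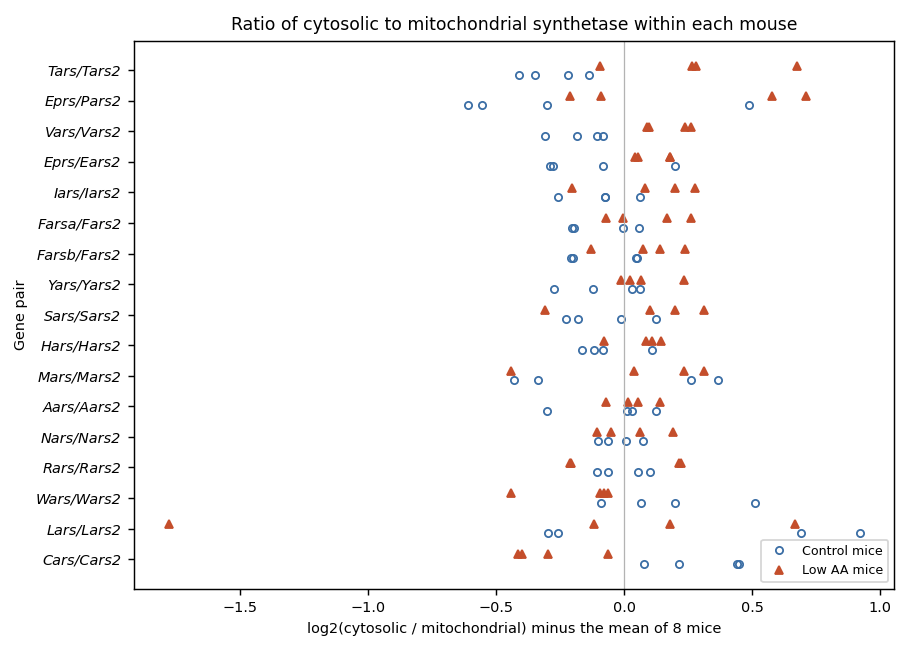
Log2 ratio of the cytosolic to the mitochondrial synthetase for the same amino acid in each mouse, minus the mean of the 8 mice, for 17 gene pairs. Open circles are Control mice and filled triangles Low AA mice. The diets do not overlap for Tars/Tars2 and Vars/Vars2, higher on Low AA, and for Cars/Cars2, lower on Low AA.

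Lars2, on chr9:123366927-123462666, varied more between mice than any other member, with a residual SD of 0.94 on the log2 scale. Its scaled counts were 23215, 5422, 5107 and 3998 in Low AA mice and 7049, 5825, 2785 and 3172 in Control mice. Mouse H1126 stood alone at 23215, and the diets overlapped in the other 7 mice. The means were 9436 ± 9207 and 4708 ± 2064 (SD, n = 4 each), which gave a log2 fold change of 0.71 (SE 0.51, limma adjusted p 0.663), and it was 0.14 without H1126 (limma adjusted p 0.952). Rn45s had 178584, 60048, 51157 and 50049 on Low AA and 78018, 53314, 19010 and 53752 on Control. In both genes H1126 was highest, F129 next and F7111 lowest. The order of the other mice differed, with F2110 next to lowest in Lars2 but above F2212, H817 and H1315 in Rn45s. Lars2 amounted to 5.90% to 14.7% of Rn45s in every mouse, while Lars2 itself ranged from 2785 to 23215. Over the 8 mice the Pearson correlation of their log2 values was 0.902 (exact permutation p = 0.00193) and Spearman's rho was 0.810 (exact permutation p = 0.0218), for 1 pair chosen after the values were seen. Rn45s ranked 6th among all genes by this correlation with Lars2. Without H1126 and F7111, the 2 mice farthest from the median of Rn45s, r was 0.658 (exact permutation p = 0.108) and rho was 0.543 (exact permutation p = 0.297, n = 6), over the narrower range of Rn45s that this leaves. With the diet mean taken off each gene and permutation within diets, r was 0.883 (exact permutation p = 0.00347) and the correlation of within-diet ranks was 0.900 (exact permutation p = 0.0243, n = 8), a calculation also added after the values were seen. The part of ribosomal RNA in the Lars2 values was not tested.

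**Figure D5:**
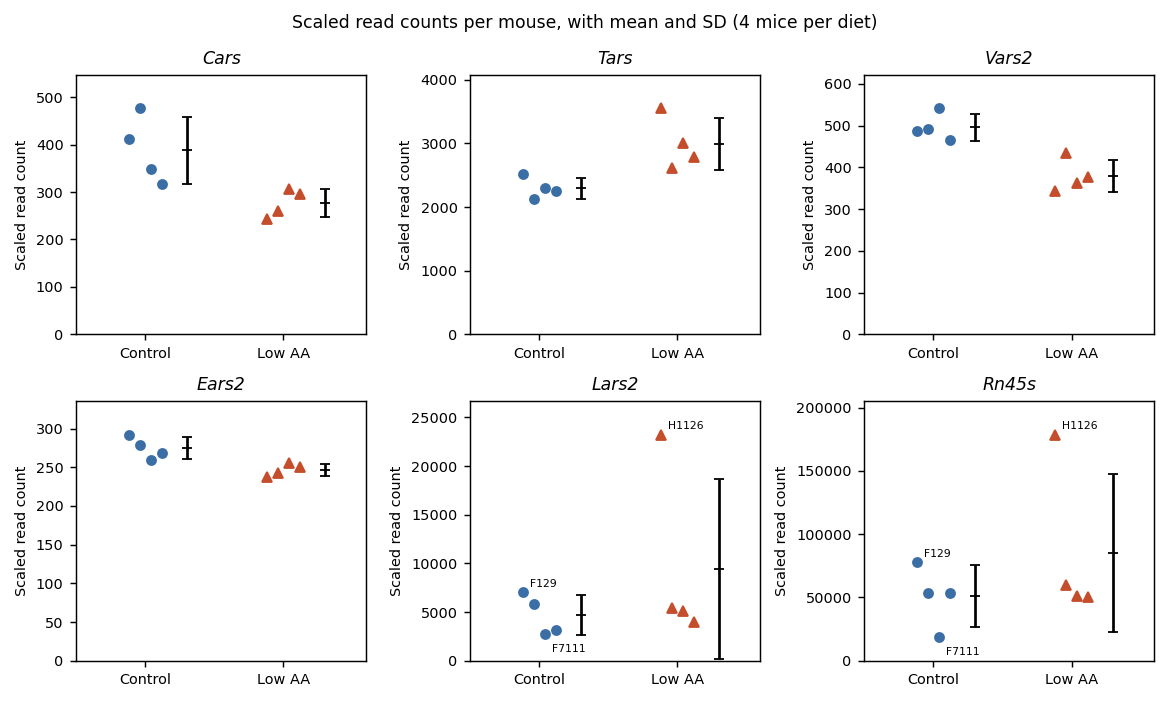
Scaled read count in each mouse for the 4 synthetases whose diets do not overlap, for Lars2 and for Rn45s, with the mean and SD of each diet as bars (4 mice each, axes from 0). In Cars, Vars2 and Ears2 every Low AA mouse is below every Control mouse, in Tars every one is above, and mouse H1126 is highest in both Lars2 and Rn45s.

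Some members share sequence with a neighbour or an antisense gene, so their reads could be credited to the wrong gene or split. In the GENCODE annotation 24 of 36 members had no 100-base window of transcript in common with another gene. On the same strand, 12.8% of the windows of Aars were shared with Exosc6. On the opposite strand the shares were 21.4% for Iars2 with Rab3gap2, 6.97% for Fars2, 5.30% for Farsb and 4.47% for Vars2, and Cars shared 1.67%. Tars, Ears2 and Lars2 shared none with an annotated transcript, and their sequence was not compared with that of Rn45s. Whether the counting used the strand of the library is not given in the sources used here, so reads of antisense partners may be included.

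Other genes of tRNA charging were read from the same fit. Of 15 listed, 13 were in the table and 0 passed the adjusted test, against 0.399% of all genes. Qrsl1, the subunit of the mitochondrial amidotransferase that makes glutamine on its tRNA, had 185, 133, 170 and 136 on Low AA and 122, 98, 134 and 127 on Control, a log2 fold change of 0.37 (SE 0.16, limma adjusted p 0.409). Gatc, another subunit of that enzyme, had 574, 533, 580 and 540 on Low AA and 516, 523, 531 and 420 on Control, without overlap, at 0.17 (SE 0.11, limma adjusted p 0.605). It was the 1 of the 13 without overlap (7.69%, against 6.81% of all genes). Of 26 genes of tRNA maturation and export, 22 were in the table and 0 had an unadjusted p under 0.05, against 11.8% of all genes. Elac2, the nuclease that trims the 3′ end of tRNA precursors, was the 1 without overlap (4.55%, against 6.81% of all genes). It had 569, 536, 547 and 578 on Low AA and 656, 619, 643 and 593 on Control, a log2 fold change of −0.17 (SE 0.09, limma adjusted p 0.509).

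Genes of the amino acid response through ATF4 varied more than the synthetases. Of 33 listed, 29 were in the table, and 0 passed the adjusted test, against 0.399% of all genes. Their median log2 fold change was 0.08, their median residual SD 0.31, and 6 had an unadjusted p under 0.05 (20.7% against 11.8% of all genes), 4 higher and 2 lower. The diets did not overlap in 3 of them (10.3% against 6.81% of all genes), 2 higher and 1 lower. Atf4 itself had 2090, 1837, 2026 and 2593 on Low AA and 2227, 2520, 2078 and 2432 on Control, which overlapped, a log2 fold change of −0.12 (SE 0.12, limma adjusted p 0.768). ATF4 is regulated mainly through translation of its mRNA, which these libraries do not measure. Asns, asparagine synthetase, had 234, 480, 344 and 1264 on Low AA and 138, 355, 122 and 219 on Control, a log2 fold change of 1.30 (SE 0.49, limma adjusted p 0.321), with H1315 far above the rest. Of the 5 synthetases with the same promoter element, only Gars had its highest value of the 8 mice in H1315, at 1470 against 1271 to 1449 in the other mice. This was read in 1 mouse, picked for its Asns value, and whether the 5 genes follow Asns was not tested.

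Ddit4, an inhibitor of mTORC1, had 231, 271, 335 and 267 on Low AA and 206, 91, 198 and 201 on Control, and Mthfd1l, of mitochondrial folate metabolism, had 44, 41, 43 and 61 against 29, 26, 36 and 25. Both were among the 3 without overlap, at log2 fold changes of 0.72 (limma adjusted p 0.281) and 0.68 (limma adjusted p 0.223). Psph, the last enzyme of serine synthesis, was lower without overlap, with 50, 80, 80 and 73 on Low AA and 94, 102, 82 and 87 on Control, at −0.38 (limma adjusted p 0.462). Psat1, the enzyme before Psph in that pathway, was at 0.87 (limma adjusted p 0.409), with counts of 41, 44, 26 and 51 against 12, 45, 20 and 18. The translation repressor Eif4ebp1 was at −0.32 (limma adjusted p 0.347) and the mitochondrial serine hydroxymethyltransferase Shmt2 at −0.24 (limma adjusted p 0.409). The directions within the list were thus mixed, and no single gene of it passed the adjusted test, which only 0.399% of all genes passed.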

How the data were processed

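Liver poly(A) RNA of 8 mice had been made into stranded libraries and sequenced as single reads of 100 bases. The submitters' processing notes name bcl2fastq 1.8.2, STAR 2.5.0a, RSEM 1.2.6, edgeR 3.10.5, R 3.2.1 and mm10, without saying what each did. The values the authors deposited are whole numbers that were treated as a score, since they are read counts after scaling and rounding. Their table also holds a fold change and an FDR, which were not used. How it was scaled is not given in the sources used here. Factors of 0.902 to 1.108, fitted to gaps among low values, put the depth at an estimated 26900000 to 31500000 reads per mouse.

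No count model was run. The test was limma (3.58.1, under R 4.3.3) on log2(value + 1), without covariates, in trend mode, with Benjamini-Hochberg adjusted p-values over the 11784 genes and a threshold of 0.05. Genes needed a value of 1 in 4 mice, which removed 0. Fold changes are on the log2(value + 1) scale. The script was tested on simulated data. Groups were the diets in the labels, with each mouse as 1 replicate.

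Per-mouse values are given for members at an unadjusted p under 0.05, members without overlap, the 3 highest per kilobase in each compartment, and genes of the other lists that met either of the first 2 rules, with Atf4 and Asns always, apart from 1 gene and 1 sequence that are not reported here. Values of Pars2, Cars2 and Rn45s, the pair ratios, and the means without Lars2 were added after values were seen. The members and lists were chosen with earlier results of these data known. Transcript lengths, positions and shared windows are from GENCODE vM21 (GRCm38). A planned comparison of protein sequences was not made. Alternatives were a pseudocount of 0.1 or 5, no trend, only the 8000 highest genes by mean, equal column totals, leaving out each mouse, and leaving out F2212 and H1126 together, chosen after seeing the data.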

Additional observations from a re-analysis of the deposited data

Results flagged for a closer look

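Each synthetase was checked in each diet for a mouse far from the other mice, which made 72 groups of 4. In 1 of them, Nars on Low AA, mouse H828 at 2559 stood above the others at 2425 to 2439. On the log2 scale its gap to the nearest mouse was 0.893 of the range of the group, past the limit set for groups of 4. Lars2 in mouse H1126, at 23215 against 3998 to 5422 in the other Low AA mice, did not pass the limit on that scale. The rule thus does not rank mice by the size of their deviation. Chance gives a gap past that limit in about 1 of 20 groups, so 1 flag in 72 groups is no more than chance would give.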

How the results depend on the processing

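No synthetase passed the adjusted test under any of the 14 alternatives, where the lowest adjusted p of a member was 0.163 (limma). Between 1 and 6 members had an unadjusted p under 0.05, while 7.84% to 13.3% of all genes did. There was 1 member (2.78%, against 10.5% of all genes) without F2212 and H1126, and 6 (16.7%, against 11.3%) without F2110. All 234 alternative values of the 17 members with the largest changes in size kept their direction. These members were picked by size from the same mice that the alternatives reuse, so this adds little support. Gars, Hars, Iars2, Sars, Vars, Wars and Yars, all near 0, changed sign when some mouse was left out. In size, 13 of the 17 moved by over 1.5 times when some mouse was left out, among them Mars2, from −0.14 to −0.0044 without Control mouse F7111, while Cars, Tars, Vars2 and Ears2 did not. The number of all genes called was 47, and it was 19 among the 8000 genes with the highest mean, where fewer genes were tested, 30 without the mean-variance trend, and 16 to 77 when 1 mouse was left out. It was lowest without Low AA mouse H817 and highest without Control mouse F2212, whose pancreatic marker stood apart, and 21, 19 and 29 without H1126, H828 and F129. The number of synthetases without overlap was 4 to 8 when 1 mouse was left out, with 8 without Control mouse F2110, while 7.98% to 12.7% of all genes did not overlap in those sets of 7 mice. The median log2 fold change of the cytosolic members ran from −0.0099 to 0.0670 when 1 mouse was left out, highest without H1126, and was negative without H828, H1315 or F2110, so it has no stable sign. That of the mitochondrial members stayed between −0.141 and −0.0943, with 11 or 12 of 16 lower, or 9 of the 12 among the 8000 highest genes. The causes were not tested. Equal column totals moved the median of all genes by 0.0035. No paired analysis was possible because the labels give the mice no numbers shared between diets. With 4 mice a diet, the interval of Lars2 ran from −0.43 to 1.84 and that of Pars2 from −0.98 to 0.14 on the log2 scale.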
